A study of Homo sapiens with 33 samples.

Results

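PEO1 and PEO4 are established high-grade serous ovarian carcinoma cell lines that came from ascites of the same patient, and the comparison asked how the RNA of PEO4, the platinum-resistant line, differed from that of PEO1, the platinum-sensitive line. The libraries were those whose labels name PEO1 (replicates 1 to 3) and PEO4 (replicates 1 to 3), 6 of the 33 libraries of the series. The labels give the line and the replicate number, while sensitivity and resistance are the study's description of the lines. The labels name no treatment of these cells, and the methods give the same basal medium with serum and pyruvate for both lines. PEO1 is known as a line deficient in BRCA2 and PEO4 as a line that regained BRCA2 function. PEO1 was obtained from CancerTools.org and PEO4 from ECACC, and each line is a single established culture, so resistance, supplier and passage history cannot be told apart in these libraries. PEO6, a further resistant line of the same origin with 3 libraries, also from ECACC, is set beside PEO4 below. Nothing says whether the replicates were separate cultures, so p-values measure the spread between these libraries, which may be technical.

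Interferons are secreted proteins that bind receptors on neighbouring cells and, through factors such as STAT2 and IRF9, switch on a set of antiviral genes by binding short elements in their promoters. HOX genes lie in 4 clusters and encode transcription factors that give cells their position along the body axis, and Mullerian tissues, from which serous carcinomas arise, use particular members. Platinum drugs crosslink DNA, and the repair of these lesions, drug transport, thiol chemistry and the apoptosis machinery are the classes of genes most often examined in resistant cells.

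The 6 libraries held 24597243 to 33612962 estimated counts. Across genes, Pearson r of log2 normalised counts was 0.958 to 0.986 within a line and 0.850 to 0.871 between the lines. Mitochondrial ribosomal RNA took 1.80% to 2.75% of counts in PEO1 and 2.56% to 5.59% in PEO4, with the highest value in PEO4 replicate 3. No pair of replicates agreed within counting noise. Both lines carried the markers of serous epithelium, of which 13 of 15 averaged at least 1 TPM (a level scaled by transcript length and by library total) in each line, with a summed level of 4789 to 6429 TPM in PEO1 and 4060 to 4889 TPM in PEO4. Of the others, SOX17 was listed at 0 in every library of both lines. Leukocyte markers summed to 30.2 to 35.6 TPM in PEO1 and 23.3 to 34.3 TPM in PEO4, nearly all of it CD68, a lysosomal protein that many cell types make. Endothelial markers summed to 0.726 to 0.976 TPM in PEO1 and 1.76 to 3.15 TPM in PEO4. Fibroblast and mesothelial markers summed to 15.6 to 23.2 TPM in PEO1 and 23.02 to 38.04 TPM in PEO4. In bulk RNA, fewer cells with a message and less of it per cell cannot be told apart.

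Of 17467 genes tested with DESeq2, 5820 differed between the lines at an adjusted p under 0.05, which is 33.3% of genes. PEO4 was higher for 2896 of them (16.6%) and lower for 2924 (16.7%). These shares are the background against which each gene list is set below. The differences were often large: 3082 of the called genes changed at least 2-fold and 855 at least 8-fold, of which 382 were higher and 473 lower in PEO4. The count depended on the libraries, since 2921 genes were called without replicate 1 of both lines and 3485 without replicate 2. Where leaving out a replicate of both lines moved the calls of a gene list by more than 1.5 times, the total called without it is given beside the list. Fold changes below are log2 values of PEO4 over PEO1 with their standard error, and levels are TPM of replicates 1, 2 and 3 in that order.

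**Figure D1:**
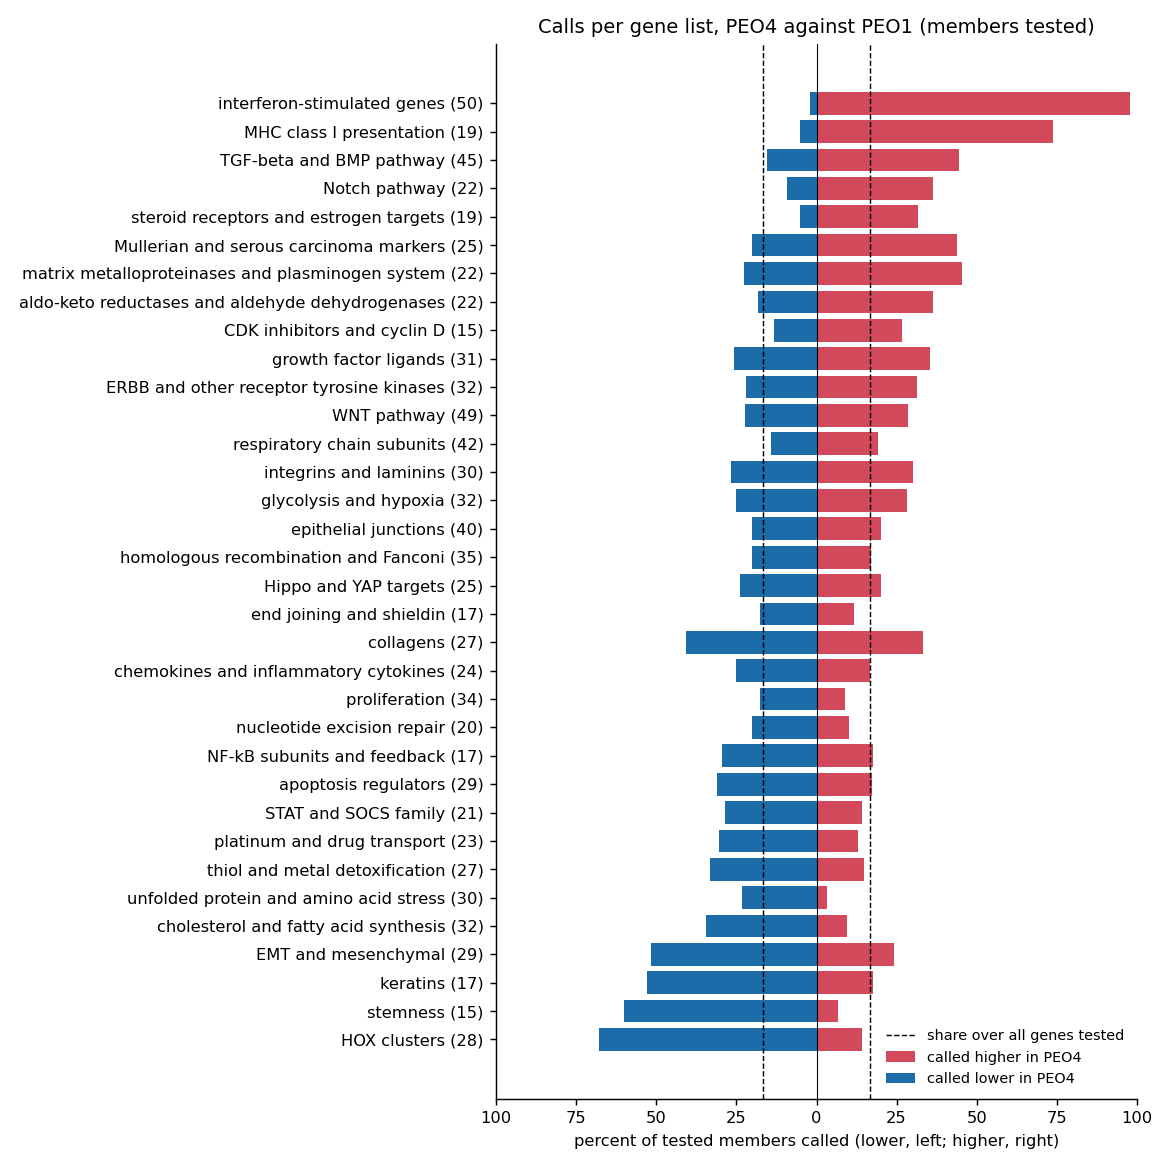
Share of tested members called by DESeq2 in each gene list with at least 10 tested members (number tested in parentheses), lower in PEO4 to the left and higher to the right, with the share over all genes tested as dashed lines. Interferon-stimulated genes (49 of 50 higher) and HOX genes (19 of 28 lower) stand at the ends of the order, and DNA repair, proliferation and respiratory chain lists lie close to the dashed lines.

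Interferon-stimulated genes were higher in PEO4 almost without exception. Of the 50 genes of this list, all of which were matched and tested, 49 were called higher and 1 lower, and the median log2 fold change was 2.51 against 0.01 over all genes tested. The libraries of the lines did not overlap for any of the 50, where 19.6% of all genes had every PEO4 library above every PEO1 library and 21.9% the reverse. IFI27, a mitochondrial protein and a standard readout of interferon exposure (chromosome 14, 94105894 to 94116690), stood at 172, 217 and 120.1 TPM in PEO1 and 3094, 3238 and 2492 TPM in PEO4 (log2 fold change 4.10 ± 0.19, adjusted p 6.83e-99). The lowest PEO4 library was far above the highest PEO1 library.

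Promoters of these genes are shown because the genes moved together and interferon-activated factors are known to bind a short element there. RefSeq promoter sequences (GRCh38.p14, 250 bases before to 50 after the annotated start) matched 38 of the 50 genes. Both strands were searched for the core of the interferon-stimulated response element, which is GAAA, any 2 bases and GAAA again (TTTC, any 2 bases and TTTC on the other strand), and for the gamma-activated site TTCNNNGAA. The 6 matched genes with the largest gain in TPM follow, 5′ to 3′ on the gene's strand, with response element cores in capitals.
IFI27 (chr14:94110486-94110785, plus strand): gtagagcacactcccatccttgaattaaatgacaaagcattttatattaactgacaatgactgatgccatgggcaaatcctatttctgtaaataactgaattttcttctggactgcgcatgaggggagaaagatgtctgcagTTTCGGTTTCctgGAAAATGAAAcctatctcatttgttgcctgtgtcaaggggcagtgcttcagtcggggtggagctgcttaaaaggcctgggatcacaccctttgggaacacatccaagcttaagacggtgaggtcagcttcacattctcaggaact
IFITM3 (chr11:320811-321110, minus strand): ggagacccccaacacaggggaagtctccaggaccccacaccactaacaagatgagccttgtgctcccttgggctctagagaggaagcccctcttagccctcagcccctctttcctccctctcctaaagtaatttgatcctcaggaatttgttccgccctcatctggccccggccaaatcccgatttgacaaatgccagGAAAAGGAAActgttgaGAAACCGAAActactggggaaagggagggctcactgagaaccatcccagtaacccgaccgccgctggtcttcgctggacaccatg
IFITM1 (chr11:313790-314089, plus strand): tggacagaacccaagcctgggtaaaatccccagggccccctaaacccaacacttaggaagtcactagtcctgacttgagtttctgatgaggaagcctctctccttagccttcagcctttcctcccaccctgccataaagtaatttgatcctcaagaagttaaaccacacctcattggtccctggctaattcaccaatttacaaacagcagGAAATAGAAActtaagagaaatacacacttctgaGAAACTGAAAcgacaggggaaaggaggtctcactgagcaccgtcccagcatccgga
LGALS3BP (chr17:78979874-78980173, minus strand): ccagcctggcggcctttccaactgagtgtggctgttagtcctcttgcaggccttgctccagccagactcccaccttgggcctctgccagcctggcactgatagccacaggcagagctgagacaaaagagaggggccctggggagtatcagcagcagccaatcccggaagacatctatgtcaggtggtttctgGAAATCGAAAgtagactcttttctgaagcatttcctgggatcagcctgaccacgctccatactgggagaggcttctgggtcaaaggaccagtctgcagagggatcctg
IFI6 (chr1:27672143-27672442, minus strand): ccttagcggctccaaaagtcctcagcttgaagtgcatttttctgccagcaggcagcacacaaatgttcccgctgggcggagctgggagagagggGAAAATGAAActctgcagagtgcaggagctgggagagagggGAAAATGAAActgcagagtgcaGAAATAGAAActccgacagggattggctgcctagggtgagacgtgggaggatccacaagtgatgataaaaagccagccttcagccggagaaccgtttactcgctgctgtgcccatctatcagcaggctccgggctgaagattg
ISG15 (chr1:1013247-1013546, plus strand): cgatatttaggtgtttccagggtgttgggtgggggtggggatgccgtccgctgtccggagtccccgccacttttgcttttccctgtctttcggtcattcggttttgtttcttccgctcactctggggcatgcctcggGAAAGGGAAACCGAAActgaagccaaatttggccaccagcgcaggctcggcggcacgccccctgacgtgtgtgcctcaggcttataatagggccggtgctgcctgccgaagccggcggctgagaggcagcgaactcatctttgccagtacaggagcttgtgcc
Each of the 6 held 1 to 3 cores. A core was present in 25 of the 38 promoters (65.8%), against 3.65% of 27305 promoters of the same length, and a gamma-activated site in 10 of 38 (26.3%) against 7.88%. The 25 genes with a core had a median log2 fold change of 3.33 (range 0.73 to 8.33) and the 13 without one 2.08 (1.10 to 4.52), so both groups were higher in PEO4 and their ranges overlapped. The search took exactly 2 bases between the repeats. Among the 13, OAS1, RSAD2, DDX58 and XAF1 hold GAAACGAAA, with a single base between them, so the split follows this spelling of the core. The list was made of genes known to respond to interferon, so the excess of cores describes the list and not PEO4. Genes picked from these data had at most 3 counts in each library of one line and at least 50 in each of the other. A core was present in 1 of 18 matched promoters (5.56%) of those expressed in PEO4 alone, and in 0 of 23 for PEO1 alone. A match describes the letters in this window and does not show binding.

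Membrane proteins that block the entry or release of viruses differed widely. IFITM1 was at 3.71, 3.23 and 1.53 TPM in PEO1 and 983, 959 and 732 TPM in PEO4 (log2 fold change 8.33 ± 0.26, adjusted p 9.77e-222). IFITM3 was at 128, 125 and 97.04 TPM in PEO1 and 1279.9, 1210.2 and 1018 TPM in PEO4 (log2 fold change 3.36 ± 0.19, adjusted p 2.25e-71). All PEO4 libraries lay far above all PEO1 libraries for both, although IFITM1, IFITM2 and IFITM3 are similar in sequence and reads may be shared among them. BST2, which tethers virions to the cell surface, was at 0.569, 0.372 and 0 TPM in PEO1 and 94.8, 64.6 and 26.7 TPM in PEO4 (log2 fold change 7.92 ± 0.84, adjusted p 8.95e-20), so it was near absent from PEO1.

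ISG15, a ubiquitin-like modifier, stood at 21.8, 23.7 and 23.3 TPM in PEO1 and 519, 445 and 426 TPM in PEO4 (log2 fold change 4.36 ± 0.19, adjusted p 1.05e-115). MX1, a dynamin-like antiviral GTPase, was at 4.21, 2.91 and 3.06 TPM in PEO1 and 408, 354 and 227 TPM in PEO4 (log2 fold change 6.63 ± 0.18, adjusted p 3.10e-286). IFI6, which protects cells from apoptosis and from flaviviruses, was at 6.19, 7.99 and 5.004 TPM in PEO1 and 574, 518 and 348 TPM in PEO4 (log2 fold change 6.25 ± 0.21, adjusted p 3.44e-191). For each of these the PEO1 libraries lay close together at a low level and the PEO4 libraries were all higher, with replicate 3 the lowest of PEO4. That is the library with the most mitochondrial ribosomal RNA, and without replicate 3 of both lines all 50 genes of the list were still called (47 without replicate 1). Among the oligoadenylate synthetases, which activate RNase L, OAS2 was at 0.812, 0.546 and 0.351 TPM in PEO1 and 66.99, 50.4 and 26.1 TPM in PEO4 (log2 fold change 6.44 ± 0.24, adjusted p 1.56e-160) and OAS1 at 7.42, 7.798 and 5.41 TPM in PEO1 and 193, 163 and 109.9 TPM in PEO4 (log2 fold change 4.52 ± 0.19, adjusted p 9.67e-128).

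The factors that carry the interferon signal were higher as well. IRF7, which amplifies interferon transcription, was at 2.07, 2.34 and 2.58 TPM in PEO1 and 18.4, 18.02 and 15.6 TPM in PEO4 (log2 fold change 2.93 ± 0.25, adjusted p 4.82e-31), and IRF9, the DNA-binding partner of STAT2, at 24.4, 28.1 and 17.1 TPM in PEO1 and 74.04, 70.7 and 73.3 TPM in PEO4 (log2 fold change 1.71 ± 0.23, adjusted p 1.83e-12). STAT2 rose less, with 9.88, 7.44 and 7.202 TPM in PEO1 and 23.5, 19.98 and 10.5 TPM in PEO4 (log2 fold change 1.10 ± 0.19, adjusted p 1.83e-07), and its highest PEO1 library lay just below its lowest PEO4 library. The RNA sensor RIG-I, listed as DDX58, was at 20.9, 17.9 and 17.3 TPM in PEO1 and 146, 117 and 65.4 TPM in PEO4 (log2 fold change 2.51 ± 0.18, adjusted p 2.04e-41). GBP2, an interferon-induced GTPase, was the single member called lower, at 6.14, 9.02 and 3.48 TPM in PEO1 and 2.59, 2.39 and 1.61 TPM in PEO4 (log2 fold change -1.40 ± 0.28, adjusted p 3.74e-06), while the related GBP1 was called higher (log2 fold change 0.73 ± 0.19, adjusted p 8.44e-04) and lost its call without replicate 1 (adjusted p 0.109).

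**Figure D2:**
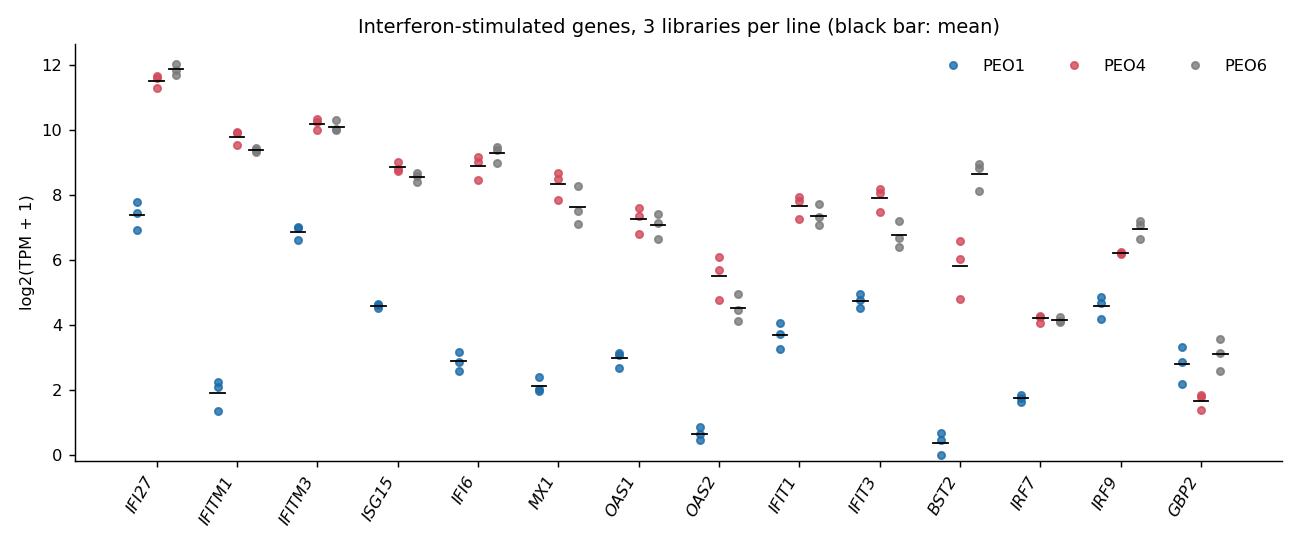
Levels of 14 interferon-stimulated genes as log2(TPM + 1) in each library of PEO1, PEO4 and PEO6, with the mean as a black bar. The PEO4 points lie above the PEO1 points for every gene shown except GBP2, where they lie below, and the PEO6 points lie above PEO1 for all but GBP2.

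Genes of MHC class I antigen presentation were mostly higher in PEO4. Of 19 tested members (20 matched), 14 were called higher and 1 lower, with a median log2 fold change of 1.25. TAP1, which pumps peptides into the endoplasmic reticulum, was at 10.1, 8.46 and 8.201 TPM in PEO1 and 51.7, 37.8 and 21.3 TPM in PEO4 (log2 fold change 2.001 ± 0.20, adjusted p 1.72e-21). All PEO4 libraries lay above all PEO1 libraries. The immunoproteasome subunits PSMB8 (log2 fold change 1.73 ± 0.19, adjusted p 8.78e-19) and PSMB9 (log2 fold change 1.99 ± 0.25, adjusted p 2.23e-14) were also called higher. B2M, the invariant light chain, was at 3318, 4410.4 and 2395 TPM in PEO1 and 3657, 3233 and 2687 TPM in PEO4, its libraries overlapped and the test did not call it (adjusted p 0.974). NLRC5, the transactivator of class I genes, was the member called lower (log2 fold change -1.08 ± 0.33, adjusted p 0.00511), and it was not called when any one replicate was left out (adjusted p 0.0595, 0.156 and 0.0758 without replicates 1, 2 and 3).

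Of the 19 tested members 10 lie on chromosome 6, where more genes were called higher than lower in PEO4. Those 10 had a median of 1.66 and 9 were called higher. The 9 on other chromosomes had a median of 0.70, with 5 called higher and 1 lower. In the 20 Mb of chromosome 6 that hold the MHC (GRCh38.p14, 20000001 to 40000000), 170 of 284 tested genes outside the antigen presentation lists were called higher and 4 lower, with a median of 1.06. The part of this regional difference in the values of the chromosome 6 members was not tested. No tested interferon-stimulated gene lay on chromosome 6.

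MHC class II genes gave a different picture. Of 9 tested members (11 matched), 1 was called higher and 2 lower, and the median was 0.57 (0.49 with members near 0 at their bound), while the 10 Mb windows that hold them had a median of 1.08. CD74, the invariant chain, was at 42.4, 37.4 and 44.8 TPM in PEO1 and 3.72, 2.15 and 1.05 TPM in PEO4 (log2 fold change -4.24 ± 0.29, adjusted p 3.17e-46), with every PEO4 library far below PEO1. CIITA, the master regulator of class II, was lower too (log2 fold change -2.53 ± 0.50, adjusted p 2.75e-06). HLA-DRA was near 1 TPM in both lines (1.19, 1.71 and 0.208 TPM in PEO1 and 1.16, 1.67 and 0.771 TPM in PEO4).

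Differences between the lines were unevenly spread over the genome. On chromosome 6, 42.4% of tested genes were called higher and 8.68% lower, with a median log2 fold change of 0.64. Chromosome 21 was similar, with 48.8% higher, 5% lower and a median of 0.63. In the other direction, chromosome 15 had 31.9% lower and 6.98% higher (median -0.36), chromosome 22 had 31.8% lower (median -0.29) and chromosome 3 had 27.2% lower (median -0.22). These medians had the same sign in each of the 3 same-numbered library pairs. As differences of log2(TPM + 1), over genes averaging at least 1 TPM, chromosomes 6 and 21 had smaller medians of 0.51 and 0.47. Chromosomes 15, 22 and 3 had -0.38, -0.26 and -0.23. Between the scales, 11 chromosome medians moved by at least the standard deviation of the 3 pairs and 12 did not. Genes of a chromosome are not replicates, so no test was made.

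Windows of 10 Mb with at least 20 tested genes resolved some of these differences. Of 267 windows, 29 had a median above 0.5 and 22 a median below -0.5. The highest was on chromosome 6 (70000001 to 80000000), at 1.11, and the lowest at the end of chromosome 1 (240000001 to 250000000), at -1.28, where 28 of 42 tested genes were called lower. EXO1, an exonuclease of mismatch repair and recombination, lies in that last window and was at 36.05, 23.5 and 52.96 TPM in PEO1 and 13.5, 13.97 and 12.5 TPM in PEO4 (log2 fold change -1.38 ± 0.21, adjusted p 6.99e-10), close to the window's own median. PCNA, the sliding clamp of DNA replication, was at 459.6, 413 and 556 TPM in PEO1 and 198, 226 and 288 TPM in PEO4 (log2 fold change -0.98 ± 0.17, adjusted p 1.75e-07) in a window of chromosome 20 with a median of -1.10. On chromosome 6 the windows up to 80000000 had medians of 0.69 to 1.11 and those beyond it -0.26 to 0.15. Chromosome 15 had window medians of -0.87 to -0.64 up to 60000000 and -0.11 to -0.02 beyond it. Those of chromosome 22 were -0.05 to 0.03 up to 40000000, then -0.90 and -1.25. The medians of these chromosomes thus do not hold along their whole length. Copy number was not measured in these libraries, and its part in the window medians was not tested.

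**Figure D3:**
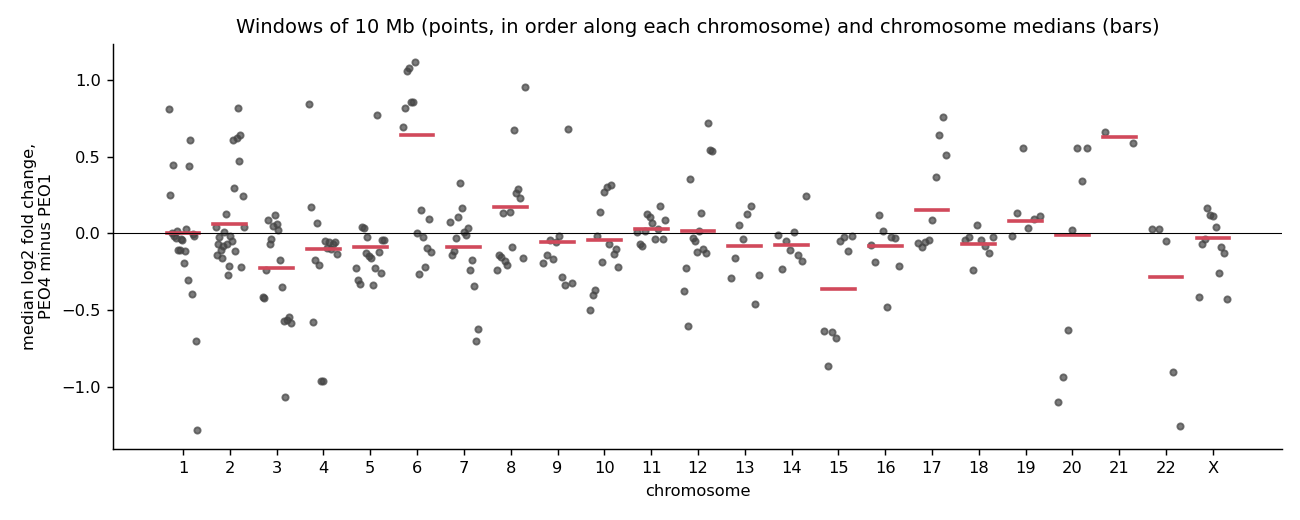
Median log2 fold change of PEO4 over PEO1 in windows of 10 Mb with at least 20 tested genes (points, in order along each chromosome) and over each chromosome (bars). The bars of chromosomes 6 and 21 lie above 0, at 0.64 and 0.63, and those of chromosomes 3, 15 and 22 below it. Window medians range from -1.28 to 1.11, and on chromosomes 6, 15 and 22 they change along the chromosome.

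Most HOX genes tested were called lower in PEO4, and the 4 called higher were HOXB2, HOXB3, HOXB4 and HOXA7. The summed level of the list was nevertheless higher in PEO4, at 472, 447 and 664 TPM against 302, 250 and 368 TPM in PEO1. Of 28 tested members (42 matched, of which 11 had at most 3 counts in each library of both lines), 19 were called lower and 4 higher. The median was -3.06, or -2.41 when members near 0 in PEO4 were set at their bound. HOXC10 (chromosome 12, 53985146 to 53990279) was at 36.1, 32.7 and 54.1 TPM in PEO1 and had 0 counts in each PEO4 library, which is at least 323-fold lower (adjusted p 3.77e-24). HOXC9 was at 6.93, 6.74 and 10.4 TPM in PEO1 and 0, 0 and 0.0481 TPM in PEO4, at least 48.7-fold lower (adjusted p 1.11e-11). In the same cluster HOXC8, HOXC11 and HOXC13 were at least 27.05-, 13.4- and 17.98-fold lower (HOXC11 was not called when any one replicate was left out, adjusted p 0.177, 0.160 and 0.0942), whereas HOXC4, at the 3′ end, fell less (log2 fold change -1.38 ± 0.26, adjusted p 1.02e-06) and stood at 12.3, 9.504 and 14.4 TPM in PEO1 and 4.07, 3.98 and 5.52 TPM in PEO4.

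The HOXB cluster changed in both directions. HOXB2 was at 85.9, 64.8 and 109.7 TPM in PEO1 and 234, 232 and 350.4 TPM in PEO4 (log2 fold change 1.61 ± 0.17, adjusted p 9.50e-20). HOXB3 was at 45.6, 35.9 and 50.3 TPM in PEO1 and 137, 121 and 194 TPM in PEO4 (log2 fold change 1.79 ± 0.18, adjusted p 4.31e-21), and HOXB4 at 30.02, 27.2 and 32.2 TPM in PEO1 and 81.9, 74.1 and 92.3 TPM in PEO4 (log2 fold change 1.51 ± 0.18, adjusted p 3.41e-15). These 3 neighbours were higher in all PEO4 libraries. Toward the 5′ end the order turned: HOXB5 was not called (adjusted p 0.537), HOXB6 (log2 fold change -2.93 ± 0.31, adjusted p 1.15e-19) and HOXB7 (log2 fold change -1.84 ± 0.25, adjusted p 2.63e-12) were lower, HOXB9 was lower (log2 fold change -5.37 ± 0.41, adjusted p 6.09e-37) and HOXB8 fell at least 32.8-fold and lost its call without replicate 1 (adjusted p 0.0922). In the HOXA cluster HOXA3 was at least 36-fold lower and HOXA7 higher (log2 fold change 1.79 ± 0.46, adjusted p 6.06e-04), at 0.828, 0.467 and 0.751 TPM in PEO1 and 2.09, 2.13 and 2.51 TPM in PEO4. HOXA3 lost its call without replicate 1 (adjusted p 0.0872) and HOXA7 without replicate 2 (adjusted p 0.0831). The PEO6 libraries also had HOXC10, HOXC9 and HOXB8 at or near 0 (at most 0.0294 TPM).

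**Figure D4:**
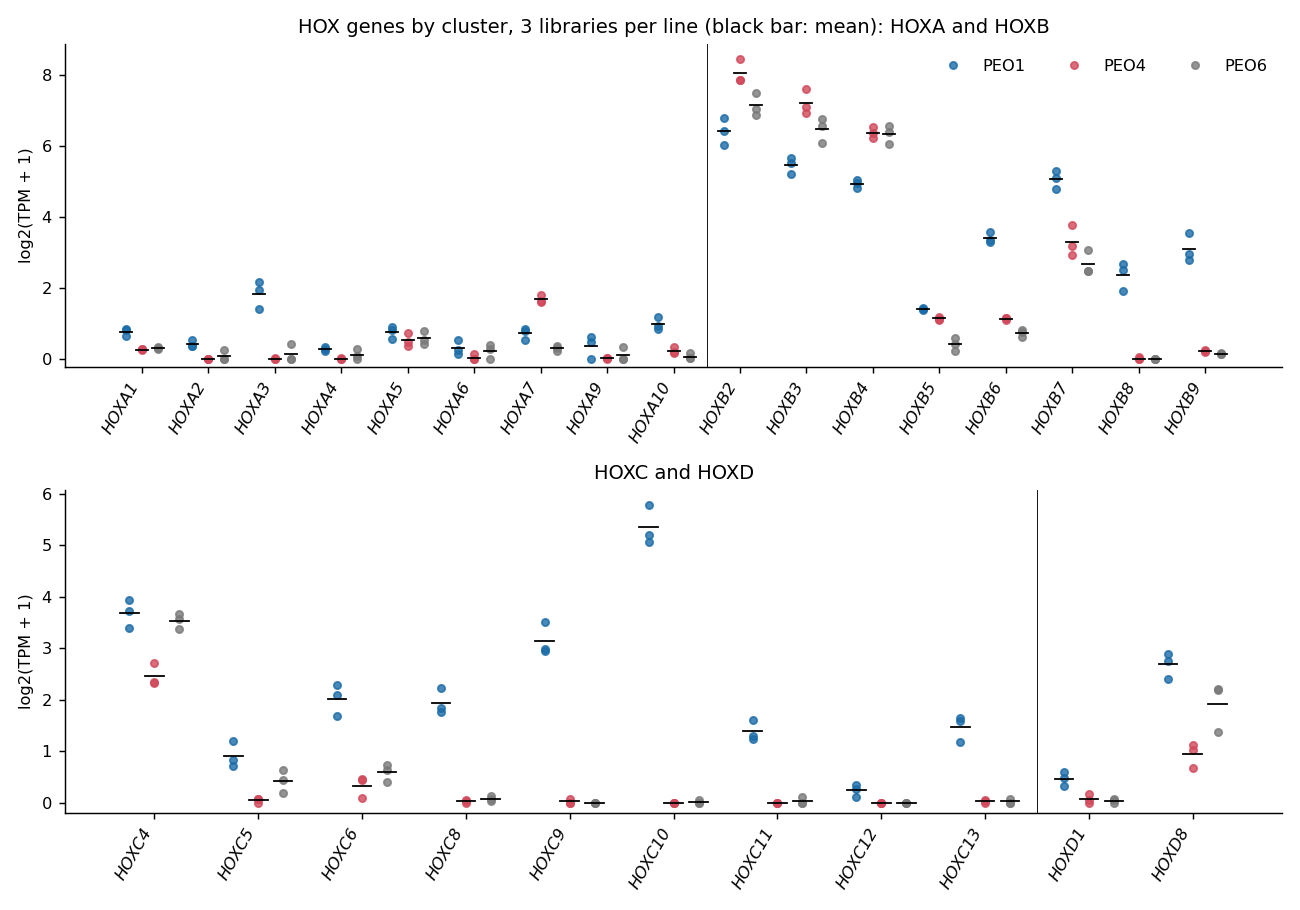
Levels of HOX genes as log2(TPM + 1) in each library of PEO1, PEO4 and PEO6, by cluster and in numerical order, with the mean as a black bar. HOXB2, HOXB3 and HOXB4 are higher in PEO4 than in PEO1, while HOXB6 to HOXB9 and the HOXC genes are lower, down to 0 counts for HOXC10.

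Markers linked to ovarian cancer stem cells were mostly lower in PEO4. Of 15 tested members (18 matched), 9 were called lower and 1 higher, with a median of -1.73 (-1.49 with members near 0 at their bound). The 10 calls became 6 without replicate 2. PROM1, which encodes the surface glycoprotein CD133 (chromosome 4, 15968228 to 16084023), was at 304, 213 and 269 TPM in PEO1 and 0.170, 0.0928 and 0.118 TPM in PEO4 (log2 fold change -11.08 ± 0.37, adjusted p 6.998e-194). Its message was thus abundant in PEO1 and almost absent from PEO4. PEO6 had 91.5, 86.6 and 155 TPM, all far above PEO4 (log2 difference 9.76 ± 0.45, adjusted p 6.37e-102). ALDH1A3, a retinaldehyde dehydrogenase, stood at 1489, 1343 and 1839.9 TPM in PEO1 and 90.7, 81.5 and 114 TPM in PEO4 (log2 fold change -3.996 ± 0.17, adjusted p 4.13e-123) and was lower still in PEO6 (2.596, 2.07 and 6.695 TPM). CD44, the hyaluronan receptor, was at 289, 267 and 417 TPM in PEO1 and 38.3, 39.3 and 43.9 TPM in PEO4 (log2 fold change -2.96 ± 0.16, adjusted p 6.08e-77), again with no overlap and with a further drop in PEO6 (3.199, 2.596 and 7.14 TPM). CD24 fell by less, at 489, 376 and 546 TPM in PEO1 and 150.2, 131 and 131 TPM in PEO4 (log2 fold change -1.73 ± 0.16, adjusted p 2.74e-26). ALDH1A1, often used as a stem cell marker, was low in both lines (1.49, 0.807 and 0.289 TPM in PEO1 and 0.163, 0.142 and 0.0603 TPM in PEO4, log2 fold change -2.70 ± 0.79, adjusted p 0.00304) and lost its call without replicate 1 (adjusted p 0.270) or 2 (adjusted p 0.132). MYC and KLF4 were not called.

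Mesenchymal genes were lower more often than higher. Of 29 tested members (32 matched), 15 were called lower and 7 higher, and the median was -1.27 (-1.07 with members near 0 at their bound). Vimentin (VIM), the intermediate filament of mesenchymal cells, was at 328, 415 and 409 TPM in PEO1 and 19.5, 24.4 and 35.02 TPM in PEO4 (log2 fold change -3.87 ± 0.21, adjusted p 8.66e-77). THBS1, a matrix glycoprotein, was at 217, 158 and 229.6 TPM in PEO1 and 10.5, 9.48 and 7.86 TPM in PEO4 (log2 fold change -4.40 ± 0.17, adjusted p 1.01e-148), and TGFBI, a TGF-beta-induced adhesion protein, at 132, 91.9 and 62.2 TPM in PEO1 and 2.96, 2.19 and 1.91 TPM in PEO4 (log2 fold change -5.27 ± 0.21, adjusted p 1.01e-132). Every PEO4 library lay below every PEO1 library for these 3. The collagen crosslinking enzyme LOXL2 and N-cadherin (CDH2) were also called lower (-3.89 ± 0.19 and -2.81 ± 0.30). In contrast MMP14, a membrane-bound matrix protease, rose from 0.163, 0.120 and 0.101 TPM to 5.73, 3.82 and 2.29 TPM (log2 fold change 4.92 ± 0.43, adjusted p 1.59e-28), and the contractile genes MYL9 (log2 fold change 2.13 ± 0.27, adjusted p 2.88e-14) and TAGLN (log2 fold change 1.76 ± 0.40, adjusted p 7.32e-05) rose too, with yet higher levels in PEO6 (189, 296 and 239 TPM for MYL9). Among the transcription factors of the transition, SNAI2 was called lower (log2 fold change -3.37 ± 0.66, adjusted p 3.19e-06) and TWIST1 higher (log2 fold change 1.19 ± 0.38, adjusted p 0.00753, not called without replicate 3, adjusted p 0.302), while ZEB1 stayed under 0.15 TPM in every library of both lines.

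Keratins, the filaments of epithelial cells, changed in both directions. Of 17 tested (20 matched), 9 were called lower and 3 higher, with a median of -1.56. KRT81, a hair-type keratin, was at 1307, 1152 and 1257 TPM in PEO1 and 51.6, 40.4 and 36.5 TPM in PEO4 (log2 fold change -4.83 ± 0.16, adjusted p 2.15e-185), KRT7 at 1570.5, 1146 and 1438 TPM in PEO1 and 290.1, 257 and 235 TPM in PEO4 (log2 fold change -2.37 ± 0.16, adjusted p 3.67e-50) and KRT5, a basal keratin, at 182, 101.5 and 211 TPM in PEO1 and 6.12, 6.16 and 5.95 TPM in PEO4 (log2 fold change -4.66 ± 0.20, adjusted p 1.25e-120). KRT81 and KRT86 are near-identical, so reads may be split between them. KRT17, another basal keratin, went the other way, at 0.989, 0.937 and 0.864 TPM in PEO1 and 38.7, 29.01 and 31.1 TPM in PEO4 (log2 fold change 5.18 ± 0.28, adjusted p 5.56e-74), and so did KRT4, at 41.2, 26.4 and 27.5 TPM in PEO1 and 354, 287 and 168 TPM in PEO4 (log2 fold change 3.09 ± 0.17, adjusted p 1.11e-71). The simple epithelial keratins KRT8, KRT18 and KRT19 were abundant in both lines, overlapped between them and were not called (adjusted p 0.0533, 0.236 and 0.596).

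**Figure D5:**
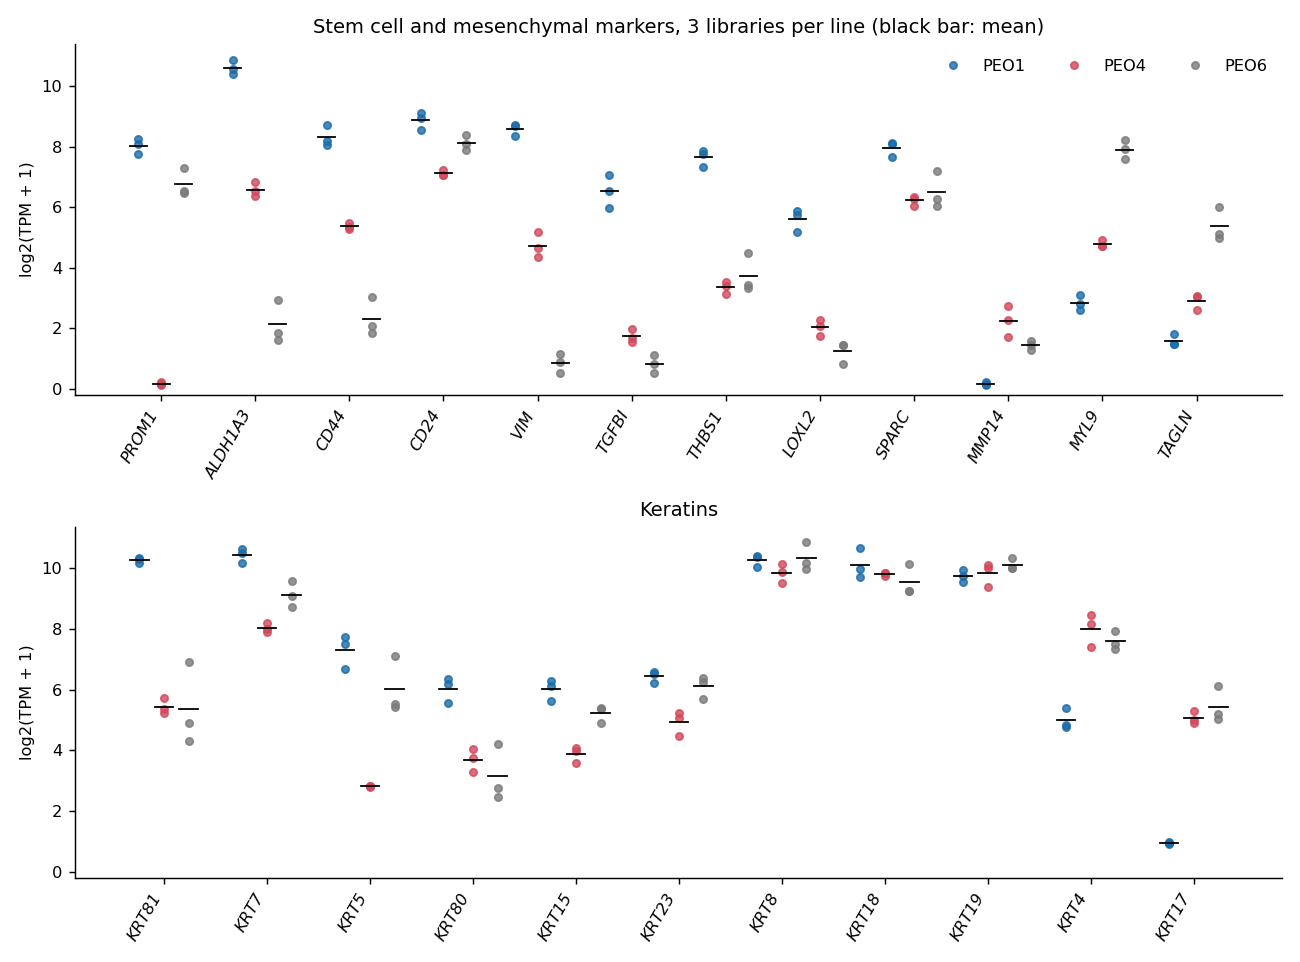
Levels of stem cell and mesenchymal markers (top) and keratins (bottom) as log2(TPM + 1) in each library of PEO1, PEO4 and PEO6, with the mean as a black bar. PROM1 is near 0 in PEO4 alone, VIM and CD44 step down from PEO1 to PEO4 to PEO6, and KRT8, KRT18 and KRT19 lie at similar heights in all 3 lines.

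Epithelial junction genes split evenly, with 8 of 40 tested called higher and 8 lower (median -0.02). E-cadherin (CDH1) was at 55.2, 34.99 and 56.5 TPM in PEO1 and 47.9, 47.6 and 25.96 TPM in PEO4 and was not called (adjusted p 0.396), and EPCAM was not called either (adjusted p 0.142). P-cadherin (CDH3) was lower, at 77.7, 61.6 and 70.996 TPM in PEO1 and 7.07, 6.31 and 3.92 TPM in PEO4 (log2 fold change -3.60 ± 0.18, adjusted p 3.80e-84). The epithelial transcription factor EHF was at 30.7, 23.9 and 21.8 TPM in PEO1 and 0.801, 0.494 and 0.314 TPM in PEO4 (log2 fold change -5.59 ± 0.23, adjusted p 2.40e-123), far lower in PEO4, while PEO6 had 84.9, 61.1 and 118 TPM (log2 difference 7.30 ± 0.36, adjusted p 5.59e-90). OVOL1, a repressor of mesenchymal genes, rose (log2 fold change 1.73 ± 0.21, adjusted p 1.83e-15), as did the desmosomal cadherin DSC3 (log2 fold change 1.71 ± 0.17, adjusted p 1.76e-21).

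Mullerian and serous carcinoma markers were higher more often than lower, with 11 higher and 5 lower of 25 tested (median 0.51). The 16 calls became 9 without replicate 1. Folate receptor alpha (FOLR1) had at most 3 counts in each PEO1 library and was at 39.5, 35.4 and 22.9 TPM in PEO4, at least 141-fold higher (adjusted p 6.30e-26). CRABP2, a retinoic acid carrier, was at 117, 96.3 and 129.9 TPM in PEO1 and 733, 741 and 773 TPM in PEO4 (log2 fold change 2.75 ± 0.16, adjusted p 1.44e-63). The lineage factor PAX8 was at 27.4, 21.9 and 40.99 TPM in PEO1 and 76.5, 75.9 and 70.1 TPM in PEO4 (log2 fold change 1.38 ± 0.18, adjusted p 8.76e-13) and WT1 at 59.4, 52.5 and 102 TPM in PEO1 and 128, 125 and 131 TPM in PEO4 (log2 fold change 0.92 ± 0.18, adjusted p 2.22e-06). MECOM, a transcription factor gene often gained in this cancer, was at 8.67, 6.21 and 11.5 TPM in PEO1 and 0.0942, 0.168 and 0.215 TPM in PEO4 (log2 fold change -5.72 ± 0.34, adjusted p 3.02e-62), and lies in a window of chromosome 3 whose median was -1.07. Within the separate list of serous epithelial markers used to check the lines, 6 of 14 were higher and 2 lower (median 0.23, 5 calls without replicate 1), and of the fibroblast and mesothelial markers 3 of 9 were higher and 1 lower (2 calls without replicate 1). Of 4 leukocyte markers tested 1 was called, lower, and lost its call without replicate 1 or 2, and of 4 endothelial markers 1 was called, higher.

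Some genes were near silent in one line and clearly expressed in the other. With at most 3 counts in each library of one line and at least 50 in each library of the other, 36 genes were expressed in PEO1 alone and 28 in PEO4 alone. Of the 36, 19 were also near silent in PEO6, and of the 28, 17 had at least 50 counts in every PEO6 library. The PEO1 group held HOX genes and EPB41L3, a membrane skeleton protein, which was at 14.6, 10.1 and 15.4 TPM in PEO1 and at 0 counts in PEO4 (at least 216-fold lower, adjusted p 5.65e-22). CDH4, or R-cadherin, was likewise at 0 in PEO4 (at least 123-fold), as were PEG3, an imprinted zinc finger gene (at least 75.7-fold), and BEX1 (at least 62.5-fold, with an adjusted p of 0.0540 without replicate 2). PDGFA, a growth factor for mesenchymal cells, was at least 59.6-fold lower.

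The PEO4 group included CCL5, a chemokine that attracts T cells (chromosome 17, 35871491 to 35880360), with 0.196, 0.0853 and 0 TPM in PEO1 and 70.8, 63.2 and 63.3 TPM in PEO4, at least 372-fold higher (adjusted p 9.85e-19). CD302, a C-type lectin receptor, had 0 counts in PEO1 and was at least 107-fold higher, though reads of a read-through gene can fall on it. COL6A2, a collagen VI chain, was at least 143-fold higher, at 12.4, 8.29 and 5.64 TPM, and ESPN, an actin bundling protein, at least 91.99-fold higher. SST, the hormone somatostatin, was at 8.68, 8.89 and 18.5 TPM in PEO4 (at least 30.8-fold higher) and lost its call without replicate 2 (adjusted p 0.106). LRRTM1, a synaptic adhesion protein, was at 7.61, 6.48 and 6.98 TPM in PEO4 against 0 counts in PEO1, and PEO6 had 0.198, 0.0509 and 0.0866 TPM. In the other direction CBLN1, a secreted synaptic organiser, was at 104, 83.5 and 86.95 TPM in PEO1 and 0.0633, 0.138 and 0.146 TPM in PEO4 (log2 fold change -9.56 ± 0.46, adjusted p 9.88e-93).

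DNA repair lists moved little as groups. For homologous recombination and the Fanconi pathway, 6 of 35 were higher and 7 lower (median 0.06), close to the background of 16.6% and 16.7%. The 13 calls became 5 without replicate 1. BRCA2 was at 1.35, 0.778 and 1.77 TPM in PEO1 and 2.199, 1.88 and 1.43 TPM in PEO4, the libraries overlapped, and it was not called (log2 fold change 0.59 ± 0.27, adjusted p 0.0748). BRCA1 was at 31.4, 20.8 and 26.04 TPM in PEO1 and 23.6, 20.3 and 15.2 TPM in PEO4 and was not called either (adjusted p 0.0521). BARD1, the partner of BRCA1, and RAD51C rose (log2 fold change 1.05 ± 0.19, adjusted p 1.96e-07 and log2 fold change 0.90 ± 0.21, adjusted p 1.07e-04).

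In the end joining and shieldin list 2 of 17 were higher and 3 lower, and the 5 calls became 3 without replicate 1. RIF1, which blocks resection of DNA ends, rose (log2 fold change 1.01 ± 0.18, adjusted p 1.17e-07) in a window of chromosome 2 with a median of 0.61. SLFN11, a protein that halts stressed replication forks, fell from 20.1, 13.1 and 14.9 TPM to 4.47, 3.17 and 2.39 TPM (log2 fold change -2.26 ± 0.19, adjusted p 1.49e-30). Nucleotide excision repair had 2 of 20 higher and 4 lower (2 calls without replicate 1, 10 without replicate 3), with DDB2, a sensor of bulky lesions, at 32.1, 30.7 and 25.7 TPM in PEO1 and 13.8, 10.4 and 7.57 TPM in PEO4 (log2 fold change -1.49 ± 0.21, adjusted p 2.82e-11). Mismatch repair had 2 of 6 called, both higher, and neither was called without replicate 1 or without replicate 2. PMS1, one of them (log2 fold change 0.70 ± 0.21, adjusted p 0.00340), lost its call without replicate 1 (adjusted p 0.0516) or 2 (adjusted p 0.0742). It lies in a window of chromosome 2 with a median of 0.62. Translesion synthesis had 2 of 9 higher and 2 lower (2 calls without replicate 1, 7 without replicate 3), with REV3L, the catalytic subunit of polymerase zeta, higher (log2 fold change 1.14 ± 0.19, adjusted p 5.60e-08).

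Transport and detoxification genes were called in both directions. Of 23 transporters tested, 3 were called higher and 7 lower (median -0.16), and the 10 calls became 6 without replicate 1 and 5 without replicate 2. SLC22A3, an organic cation transporter (chromosome 6, 160348378 to 160452577), was at 248, 166 and 169 TPM in PEO1 and 1.52, 1.82 and 1.14 TPM in PEO4 (log2 fold change -7.04 ± 0.21, adjusted p 2.35e-245), lower in every PEO4 library. ABCC4, an exporter of organic anions, rose (log2 fold change 1.77 ± 0.22, adjusted p 6.38e-15), and ABCC3 fell (log2 fold change -1.07 ± 0.23, adjusted p 3.75e-05) but was not called without replicate 1 (adjusted p 0.0562). The copper transporters SLC31A1 and ATP7B were not called (adjusted p 0.162 and 0.951). ATP7A was at 2.04, 1.06 and 1.35 TPM in PEO1 and 2.97, 2.64 and 1.74 TPM in PEO4 (log2 fold change 0.63 ± 0.26, adjusted p 0.0467) with overlap between the lines, and kept its call in 4 of 11 alternatives. In the thiol and metal list 4 of 27 tested (32 matched) were higher and 9 lower, and the 13 calls became 8 without replicate 1 or 2. GPX3, a secreted glutathione peroxidase, was at 22.8, 19.5 and 13.6 TPM in PEO1 and 106, 93.1 and 58.5 TPM in PEO4 (log2 fold change 2.23 ± 0.18, adjusted p 4.61e-34) and GCLC, the catalytic subunit of glutathione synthesis, at 10.6, 7.67 and 11.1 TPM in PEO1 and 32.6, 29.4 and 29.01 TPM in PEO4 (log2 fold change 1.68 ± 0.18, adjusted p 3.67e-20). GCLC lies in a chromosome 6 window with a median of 0.86. The metallothioneins MT1M (log2 fold change -3.41 ± 0.30, adjusted p 1.11e-28) and MT1A (log2 fold change -2.82 ± 0.32, adjusted p 1.63e-17) were lower, and these copies share much sequence.

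Apoptosis regulators had 5 of 29 higher and 9 lower (median -0.15), and the 14 calls became 7 without replicate 1 and 8 without replicate 2. CASP8, the initiator caspase of death receptors, was at 12.1, 8.72 and 9.67 TPM in PEO1 and 47.6, 35.02 and 28.8 TPM in PEO4 (log2 fold change 1.90 ± 0.18, adjusted p 7.88e-24) and BAK1, a pore former of mitochondria, at 17.8, 12.5 and 15.6 TPM in PEO1 and 45.7, 36.9 and 27.7 TPM in PEO4 (log2 fold change 1.29 ± 0.19, adjusted p 1.13e-10), the latter in a window of chromosome 6 with a median of 1.08. BIK, a BH3-only killer, was lower (log2 fold change -1.96 ± 0.25, adjusted p 9.43e-14), as was the inhibitor BIRC3 (log2 fold change -1.40 ± 0.19, adjusted p 2.36e-12).

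Cytokine and STAT genes were called in both directions. Of 24 chemokines and inflammatory cytokines tested (30 matched), 4 were higher and 6 lower (6 calls without replicate 1). IL8, a neutrophil attractant, was at 33.7, 60.7 and 55.9 TPM in PEO1 and 3.92, 6.55 and 6.46 TPM in PEO4 (log2 fold change -3.11 ± 0.21, adjusted p 6.11e-48) and CSF1, a macrophage growth factor, at 35.05, 25.8 and 32.3 TPM in PEO1 and 2.84, 2.59 and 3.201 TPM in PEO4 (log2 fold change -3.44 ± 0.19, adjusted p 1.63e-69), both lower in every PEO4 library. IL6 was low in both lines, at 0.819, 1.48 and 1.33 TPM in PEO1 and 3.67, 4.12 and 4.98 TPM in PEO4 (log2 fold change 1.85 ± 0.46, adjusted p 4.01e-04), and lost its call without replicate 1 (adjusted p 0.0713). Of the STAT and SOCS family 3 of 21 were higher and 6 lower. The feedback inhibitors CISH and SOCS2, targets of STAT5, fell from 14.005, 12.5 and 10.2 to 0.895, 0.989 and 0.648 TPM and from 7.45, 7.32 and 8.29 to 0.529, 0.813 and 0.697 TPM (-3.84 ± 0.29 and -3.47 ± 0.31). NF-kB subunits and feedback genes had 3 of 17 higher and 5 lower (4 calls without replicate 1, 5 without replicate 2), with NFKB2 (log2 fold change 0.88 ± 0.20, adjusted p 5.74e-05) higher and not called without replicate 1 (adjusted p 0.0719), and SOD2 lower (log2 fold change -1.24 ± 0.19, adjusted p 8.61e-10).

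Developmental signalling lists held calls in both directions. In all lists together, 507 of 974 tested members were called, against 33.3% of all genes tested. The lists were chosen with earlier results of these data known, so this excess is no independent result. The TGF-beta and BMP list had 20 of 45 tested higher and 7 lower (49 matched, median 0.43), and the 27 calls became 16 without replicate 2. BMP7, a secreted ligand (chromosome 20, 57168753 to 57266641), was at 0.470, 0.248 and 0.210 TPM in PEO1 and 42.98, 38.98 and 30.3 TPM in PEO4 (log2 fold change 6.999 ± 0.27, adjusted p 2.16e-140), and ID4, an inhibitor of helix-loop-helix factors, at 26.7, 23.6 and 16.8 TPM in PEO1 and 396, 444 and 521 TPM in PEO4 (log2 fold change 4.39 ± 0.23, adjusted p 1.74e-78). Both were higher in all PEO4 libraries, ID4 within a chromosome 6 window with a median of 0.82. The activin subunits were lower, INHBA at 51.6, 46.8 and 77.8 TPM in PEO1 and 1.22, 2.41 and 3.303 TPM in PEO4 (log2 fold change -4.67 ± 0.24, adjusted p 3.03e-82) and INHBB at 59.4, 40.7 and 59.9 TPM in PEO1 and 4.703, 4.75 and 6.697 TPM in PEO4 (log2 fold change -3.27 ± 0.20, adjusted p 4.94e-58). The WNT list had 14 of 49 higher and 11 lower (58 matched), and its median changed sign with the scaling (0.00 as reported, -0.01 with TMM factors, 0.15 on the TPM scale). Within it WNT11, a noncanonical ligand, was at 0.910, 0.517 and 0.494 TPM in PEO1 and 16.7, 18.8 and 14.3 TPM in PEO4 (log2 fold change 4.81 ± 0.32, adjusted p 2.36e-50) and LGR6, an R-spondin receptor, at 2.03, 1.25 and 1.02 TPM in PEO1 and 32.1, 20.9 and 13.7 TPM in PEO4 (log2 fold change 3.95 ± 0.21, adjusted p 2.16e-74). WNT7A was lower (log2 fold change -3.71 ± 0.31, adjusted p 4.01e-31) and so was the inhibitor DKK1 (log2 fold change -3.35 ± 0.34, adjusted p 9.10e-22). Notch genes had 8 of 22 higher and 2 lower, with HES4 higher (log2 fold change 2.20 ± 0.41, adjusted p 6.43e-07) in a chromosome 1 window of median 0.81 and the coactivator MAML2 lower (log2 fold change -2.001 ± 0.19, adjusted p 3.34e-23). Hippo genes had 5 of 25 higher and 6 lower (6 calls without replicate 1, 7 without replicate 2, 17 without replicate 3), with TEAD3 higher (log2 fold change 1.62 ± 0.20, adjusted p 3.96e-15) in a window of median 1.08 and the YAP target ANKRD1 lower (log2 fold change -1.44 ± 0.30, adjusted p 1.12e-05).

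Among receptor tyrosine kinases 10 of 32 were higher and 7 lower, and the 17 calls became 11 without replicate 1. EGFR was at 50.2, 20.6 and 34.5 TPM in PEO1 and 16.8, 11.01 and 4.79 TPM in PEO4 (log2 fold change -1.74 ± 0.25, adjusted p 3.89e-11), and EPHB2, an ephrin receptor, at 38.1, 22.1 and 37.8 TPM in PEO1 and 7.14, 6.07 and 4.94 TPM in PEO4 (log2 fold change -2.36 ± 0.19, adjusted p 5.12e-33). No PEO4 library of either gene reached the PEO1 range. ERBB4 was low in PEO4 but nearly absent from PEO1, at 0.0400, 0.0117 and 0.00496 TPM in PEO1 and 4.52, 4.57 and 2.62 TPM in PEO4 (log2 fold change 7.86 ± 0.52, adjusted p 2.16e-50), and higher in PEO6 (17.7, 25.8 and 17.2 TPM). Growth factor ligands had 11 of 31 higher and 8 lower (11 calls without replicate 1). EREG, an EGFR ligand, was at 0.188, 0.133 and 0.182 TPM in PEO1 and 9.95, 8.06 and 6.17 TPM in PEO4 (log2 fold change 5.61 ± 0.33, adjusted p 6.09e-64) and stood at 0.0758, 0.0235 and 0.118 TPM in PEO6. VEGFC, a lymphangiogenic factor, was at 1.201, 2.21 and 4.96 TPM in PEO1 and 20.8, 19.95 and 26.1 TPM in PEO4 (log2 fold change 3.21 ± 0.28, adjusted p 4.09e-29), and PDGFB was lower (log2 fold change -2.01 ± 0.23, adjusted p 1.29e-16). Steroid receptors and estrogen targets had 6 of 19 higher and 1 lower. The estrogen target GREB1 rose (log2 fold change 1.47 ± 0.18, adjusted p 2.07e-14). The estrogen receptor ESR1 was at 51.8, 45.9 and 52.5 TPM in PEO1 and 48.2, 38.9 and 40.2 TPM in PEO4 and was not called (adjusted p 0.394), and CA12 fell (log2 fold change -3.09 ± 0.20, adjusted p 7.02e-50).

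Matrix genes changed in both directions. Collagens had 9 of 27 higher and 11 lower. The basement membrane chains COL4A1 and COL4A2, which are transcribed from a shared promoter, fell together, COL4A2 from 23.6, 11.998 and 20.04 TPM to 0.176, 0.137 and 0.0873 TPM (log2 fold change -7.04 ± 0.31, adjusted p 8.76e-110) and COL4A1 from 14.7, 7.63 and 13.7 TPM to 0.225, 0.131 and 0.146 TPM (log2 fold change -6.10 ± 0.29, adjusted p 9.61e-99). COL18A1 rose (log2 fold change 1.39 ± 0.20, adjusted p 2.13e-11). Integrins and laminins had 9 of 30 higher and 8 lower (10 calls without replicate 1, 11 without replicate 2), with the laminin chain LAMA5 (log2 fold change 1.42 ± 0.17, adjusted p 7.23e-16) and integrin ITGB8 (log2 fold change 1.32 ± 0.16, adjusted p 8.27e-15) higher, and ITGB6 (log2 fold change -2.50 ± 0.21, adjusted p 7.42e-31) and ITGA6 (log2 fold change -1.78 ± 0.22, adjusted p 4.06e-15) lower. Matrix proteases and the plasminogen system had 10 of 22 higher and 5 lower. ADAMTS1, a matrix protease, was at 0.732, 0.356 and 0.918 TPM in PEO1 and 51.2, 41.8 and 28.9 TPM in PEO4 (log2 fold change 6.000 ± 0.26, adjusted p 1.57e-115), and tissue plasminogen activator (PLAT) at 12.01, 8.17 and 6.85 TPM in PEO1 and 70.9, 65.01 and 50.2 TPM in PEO4 (log2 fold change 2.84 ± 0.18, adjusted p 2.27e-51). The protease inhibitor SERPINE2 was at 257, 255 and 193 TPM in PEO1 and 10.3, 12.7 and 15.9 TPM in PEO4 (log2 fold change -4.18 ± 0.23, adjusted p 1.06e-69), lower in each PEO4 library.

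The calls of several growth and metabolism lists depended on single replicates. Proliferation genes had 3 of 34 higher and 6 lower (median -0.05, 4 calls without replicate 1, 17 without replicate 3), and CDK inhibitors and D cyclins 4 of 15 higher and 2 lower, including the CDK inhibitor CDKN1A (log2 fold change 1.66 ± 0.31, adjusted p 9.08e-07), which lies in a chromosome 6 window of median 1.08. Respiratory chain subunits had 8 of 42 higher and 6 lower, and the 14 calls became 4 without replicate 1 and 7 without replicate 2. Cholesterol and fatty acid synthesis had 3 of 32 higher and 11 lower (median -0.25, 4 calls without replicate 1, 8 without replicate 2), including SREBF2, the regulator of sterol synthesis (log2 fold change -1.58 ± 0.19, adjusted p 9.72e-15), which lies in a chromosome 22 window of median -0.90. The unfolded protein and amino acid stress list had 1 of 30 higher and 7 lower (median -0.28, 4 calls without replicate 1, 15 without replicate 3), with the chaperone HSPA5 higher (log2 fold change 0.69 ± 0.17, adjusted p 2.11e-04, adjusted p 0.0645 without replicate 1) and TRIB3 lower (log2 fold change -2.12 ± 0.20, adjusted p 4.39e-24). Glycolysis and hypoxia genes had 9 of 32 higher and 8 lower, and the 17 calls became 10 without replicate 1 and 11 without replicate 2. EPAS1, the hypoxia factor HIF-2 alpha, was at 38.6, 24.7 and 32.4 TPM in PEO1 and 2.88, 2.55 and 1.44 TPM in PEO4 (log2 fold change -3.79 ± 0.21, adjusted p 1.87e-73) and the carbonic anhydrase CA9 at 65.4, 56.4 and 45.2 TPM in PEO1 and 4.71, 3.51 and 2.48 TPM in PEO4 (log2 fold change -3.96 ± 0.22, adjusted p 6.94e-73), whereas the lactate exporter SLC16A3 rose (log2 fold change 1.45 ± 0.16, adjusted p 1.999e-17). Aldo-keto reductases and aldehyde dehydrogenases had 8 of 22 higher and 4 lower, with AKR1B10 at 0.292, 0.426 and 0.242 TPM in PEO1 and 8.91, 9.19 and 8.28 TPM in PEO4 (log2 fold change 4.66 ± 0.48, adjusted p 1.69e-20). Of 5 cancer-testis antigens tested (32 matched, 27 of them at the floor in both lines) 1 was higher, SSX1 (log2 fold change 4.02 ± 0.38, adjusted p 7.63e-25), a member of a family with near-identical copies.

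The study's own panels were chosen in part on these samples and are no independent evidence of direction. Its WNT and EMT panel had 1 of 6 higher and 2 lower, and its STAT panel 3 of 6 higher and 2 lower. Its platinum transport panel had 1 of 4 higher and 3 lower (1 call without replicate 1, 2 without replicate 2). From the clinical signatures it scored, the study named 6 genes as often upregulated in its resistant lines. They are a part of a signature, picked for that direction. Of these 6, 4 were called, all higher (2 calls without replicate 1). Among them were the prostaglandin receptor PTGER2 (log2 fold change 2.47 ± 0.19, adjusted p 9.55e-38) and DTX4 (log2 fold change 1.39 ± 0.18, adjusted p 1.47e-13).

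The largest differences in absolute level lay in very abundant messages. After the mitochondrial ribosomal RNAs and IFI27, RPL38, EEF1A1 and PTMA gained most TPM in PEO4 (1.63 ± 0.19, 0.46 ± 0.16 and 0.65 ± 0.19). RPS12, RPL41, RPL9, RPSA, RPL7 and RPL35A lost most (-0.67 ± 0.21, -0.55 ± 0.18, -0.77 ± 0.24, -0.77 ± 0.16, -0.49 ± 0.20 and -0.93 ± 0.17). The calls of EEF1A1, RPS12, RPL41, RPL9 and RPL7 were lost without replicate 1 (adjusted p 0.278, 0.263, 0.213, 0.152 and 0.334) and without replicate 2. Ribosomal protein genes have many processed copies, so their values are uncertain.

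A direct test of PEO6 against PEO4 asked where the resistant lines differed from each other. It called 3043 of 16728 genes (18.2%), with 1650 higher (9.86%) and 1393 lower (8.33%) in PEO6, and the count fell to 1248 without replicate 1 and 752 without replicate 2 and rose to 5223 without replicate 3. The comparison uses the same PEO4 libraries as the comparison with PEO1, so values are set side by side only. Of the 50 interferon-stimulated genes 4 were higher and 15 lower in PEO6 than in PEO4, and 31 were not called. OAS2 was lower in PEO6, at 20.7, 16.3 and 29.8 TPM (log2 difference -1.24 ± 0.37, adjusted p 0.00735), and BST2 higher, at 276, 451 and 489 TPM (log2 difference 2.80 ± 0.38, adjusted p 8.03e-12). Of the 11 MHC class II genes tested, 10 were higher in PEO6, with HLA-DRA at 173, 334 and 63.3 TPM (log2 difference 7.09 ± 0.40, adjusted p 9.19e-67) and CD74 at 115, 332 and 97.5 TPM (log2 difference 6.19 ± 0.40, adjusted p 8.22e-52). VIM fell further, to 1.22, 0.449 and 0.858 TPM in PEO6 (log2 difference -5.07 ± 0.43, adjusted p 8.96e-30), and KRT5 was higher than in PEO4, at 42.4, 45.5 and 137 TPM (log2 difference 3.34 ± 0.34, adjusted p 2.87e-20).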

How the data were processed

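Messenger RNA libraries (KAPA mRNA HyperPrep) were sequenced over repeated runs. Per the study's methods, the nf-core pipeline with GRCh38 and salmon gave the gene values. The estimated counts, which the authors made this way and did not normalise, were 88.4% whole numbers. The TPM deposited beside them are scaled by effective length and by library total, and the latter scaling removes depth. Strand use is not given in the sources used here.

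The counts were rounded to whole numbers and tested with DESeq2 1.42.0 (R 4.3.3) under the study's model and threshold (line plus replicate number as a block, adjusted p under 0.05): Wald test, no filter before the fit, Benjamini-Hochberg adjustment, on the 6 libraries. Genes left without an adjusted p by the tool count as not tested. Errors of log2 fold changes are SE and n is 3 libraries per line. Alternatives used edgeR 4.0.16 and limma 3.58.1. A gene with at most 3 counts in every library of a line was set at the floor of 3 counts in the library of that line with the smallest size factor, and its fold is given as "at least" (a floor chosen after the fits were seen). Positions and promoters are from NCBI RefSeq GRCh38.p14, which placed 24890 of 29744 genes. Of 1086 members of 46 gene lists, 1080 matched and 974 were tested. The fits were run on simulated data. DESeq2 recovered folds and signs, but found fewer of the 2-fold changes than had been required at first, and that requirement was then dropped, so changes of that size can be missed.

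The members and lists were chosen with earlier results of these data known. Genes were named by rule: the 8 largest increases and 8 largest decreases among called genes averaging 100 or more normalised counts whose 3 same-numbered pairs shared a sign, the 6 largest TPM gains and losses, up to 2 called genes per direction and list at 5 TPM or more, and a fixed set. Further members were chosen after their values were seen. Some results are not reported here.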

Additional observations from a re-analysis of the deposited data

How the results depend on the processing

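The count of 5820 genes (2896 higher, 2924 lower) was 6131 with edgeR, 5846 with TMM factors, 5885 after a filter on low counts and 4987 with all 33 libraries in the fit. Leaving out replicates gave 2921 to 6200 (1455 to 3117 higher, 1466 to 3083 lower). On the TPM scale limma called 4054 with a pseudocount of 1 (1911 higher), 3622 with 0.1 (1723 higher, 1899 lower) and 557 with no filter (247 higher, 310 lower), beside 6130 genes at an unadjusted p under 0.05. The correlation of deviations between same-numbered libraries was 0.47, 0.03 and 0.23, and 4 of 6 libraries correlated best with their own number, so the numbers were not shown to pair the samples. Without the replicate block 5872 genes were called.

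List members called fell from 507 to 337 with the pseudocount of 0.1 and 72 with no filter, and were 336 to 548 without a replicate. Stemness calls went from 10 to 6 with limma, 4 with the pseudocount of 0.1 and 3 with no filter, and were 6 to 10 without a replicate. With no filter the calls were 15 for interferon-stimulated genes, 2 for MHC class I, 5 for keratins, 3 for EMT and 5 for HOX genes. PEO6 against PEO4 gave 1959 with edgeR, 4563 without the block and 752 to 5223 without a replicate. The causes were not tested. Among the genes and counts recomputed under each alternative, no value that passed the test changed sign. Counting error and 3 libraries per line limit the precision.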
